A study of Mus musculus with 5 samples.

Results

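Neuronal ion channel and calcium pump mRNAs were followed through RNA immunoprecipitation with CYFIP1 from mouse hippocampus. The 8 genes, chosen by name, were Kcna1, Kcnd2, Kcnq3, Scn8a, Cacna1c, Cacna1e, Itpr1 and Atp2b2, out of 4713 genes with a region in at least 1 of the 4 deposited lists. A region was taken for a gene where the deposited annotation placed it inside the gene, across either end or around it. RNA was precipitated with anti-HA from 2 knock-in mice, with control IgG from the same numbered knock-in mice, and with anti-HA from 1 wild-type mouse, all on C57BL/6. The labels give neither the allele nor the age of the mice. The series names CYFIP1 as the protein under study, and the wild type, taken here to lack the tag, shows what anti-HA brings down without it. Each list gives regions called in a knock-in HA library against 1 control library, with the reads of both.

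Ion channels set how a neuron fires. Voltage-gated sodium channels start the action potential, potassium channels end it and hold the cell near rest, and calcium channels turn it into a calcium signal. The IP3 receptor releases calcium from the endoplasmic reticulum, and plasma membrane calcium pumps push it out of the cell. CYFIP1 works with FMRP, the fragile X protein, in the control of translation and sits in the WAVE complex that drives actin assembly, and mRNAs of several neuronal channels are known targets of FMRP.

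The potassium channels share a signature that lets potassium through, the selectivity filter, and the pump carries the motif with the aspartate that is phosphorylated in each transport cycle. These stretches are shown because they place the listed reads relative to the working part of each protein. Each is 30 bases of the GENCODE M21 transcript on mm10, with the motif codons in capitals. Kcna1 lies at chr6:126642220-126642249 on the minus strand, Kcnq3 at chr15:66023723-66023752 on the minus strand and Atp2b2 at chr6:113789895-113789924 on the minus strand, while Kcnd2 runs on the plus strand of chromosome 6 from 21217399 to 21714149 across an intron that splits its filter codons.
Kcna1: catgaccACTGTGGGATACGGTgacatgta
Kcnd2: catgacaACACTGGGGTATGGCgacatggt
Kcnq3: actggccACCATTGGTTATGGAgacaagac
Atp2b2: ctgctcaGACAAGACAGGAACGctgaccac

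A listed region covered the Kcna1 filter codons in 3 lists, where it was the region with the most reads on the gene. In Kcnd2 the first 8 bases of the codons lay in a region with 17 anti-HA reads against 11 from wild type in mouse 1 and 21 and 11 in mouse 2. The remaining 7 bases lay in a region with 3 HA reads and 1 IgG read, and 3 wild-type reads, in mouse 1. The Kcnq3 filter lay in a region with 8 HA, 0 IgG and 6 wild-type reads in mouse 1. No listed region covered the Atp2b2 motif. Regions span 0.4 kb or more, so they do not place reads on the codons themselves.

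The lists held 4191 and 1920 regions over IgG in knock-in mice 1 and 2, and 5355 and 5362 over wild type. The 8 genes took 0.320% and 0.418% of the HA reads in the lists over IgG, and 0.545% and 0.511% over wild type. Reads outside regions are not in the lists, which leaves the depth of every library unknown. Cyfip1 itself held 6101 and 6186 HA reads, against 67 and 115 IgG reads and 431 and 416 wild-type reads. Of the 4 general neuronal markers Map2 had a region, and so did Slc17a7, Neurod6 and Prox1 of 5 markers of pyramidal and granule neurons. None of the 4 interneuron, 4 microglial or 4 endothelial and blood markers had one. Most regions lay on few chromosomes (chromosomes 12 and 15 held 85.7% of those over IgG in mouse 2), so a missing region does not show that an RNA was absent. This bears on the channels directly, as Kcnq3 and Scn8a lie on chromosome 15, Cacna1e on chromosome 1 and the other 5 genes on chromosome 6.

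A fold here is the HA to control read ratio over all regions on a gene, divided by the median ratio of the list's regions with at least 20 reads. For mice 1 and 2 that median came to 2.89 and 0.947 in the IgG lists, then 1.41 and 1.75 in the wild-type lists. Brackets hold 95% counting intervals for 1 pair of libraries, from the exact binomial (Clopper-Pearson) method. They cover counting error only, as reads after PCR are not independent molecules, and they compare libraries, not conditions. A gene with at least 20 reads and an interval wholly above or below 1 is called. Scaling by the pooled ratio of all reads instead would add -0.42 and -1.09 to the log2 folds in the IgG lists and 0.73 and 0.93 in the wild-type lists. Fewer cells that hold an RNA and less RNA per cell cannot be told apart in such samples. Levels of different genes are compared below per kb of listed region.

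The 3 potassium channels lay near or somewhat above the list median over wild type and split over IgG. Kcna1 encodes Kv1.1, a channel of axons that limits repetitive firing. It held 66 anti-HA reads against 41 from IgG in mouse 1 and had no region over IgG in mouse 2, where that list has few regions off chromosomes 12 and 15. The fold was 0.556 (0.371 to 0.842), below the list median although HA reads outnumbered IgG reads. Over wild type Kcna1 held 84 anti-HA reads against 54 from wild type in mouse 1 and 108 and 63 in mouse 2. Both folds sat at the median, at 1.10 (0.773 to 1.58) and 0.980 (0.711 to 1.36). Kcna1 had the highest HA level per kb of the 8 genes over wild type, 7.50 reads per kb in mouse 1 and 12.3 in mouse 2. Listed length includes introns and, for Kcna1, sequence past the gene end. The ranking in mouse 1 depends on the introns. Over regions that touch an exon Atp2b2 had 7.8 in mouse 1, above Kcna1, and 8.1 in mouse 2, below it. Most of the Kcna1 reads came from a long region that touches coding exon and 3' UTR and runs past its 3' end, such as chr6:126633401-126642800. The gene ends 5.99 kb from its start, and this region ran from 3.58 to 13.0 kb, so it lay mostly past the gene. In mouse 2 the region over wild type ran from 1.18 to 9.98 kb. Where the reads lie within these regions is not given. Over wild type in mouse 1 a second region at the 5' UTR, chr6:126643401-126645200, held 18 anti-HA reads against 13 from wild type. The deposited annotation also gives these reads to Kcna5, so they cannot be assigned to Kcna1 alone, although GENCODE M21 places no part of Kcna5 there.

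Kcnd2 encodes Kv4.2, which carries the A-type current of pyramidal cell dendrites. It held 14 anti-HA reads against 2 from IgG in mouse 1, 2.42-fold with an interval from 0.555 to 21.9 that sets no side. Of these, 11 anti-HA reads against 1 from IgG lay in introns only, and the exon region alone, with 3 and 1, gave 1.04-fold (0.0832 to 54.4). Over wild type it held 40 anti-HA reads against 18 from wild type in mouse 1 and 39 and 17 in mouse 2. HA reads were more than the wild-type reads in both mice, at 1.57-fold (0.882 to 2.92) and 1.31-fold (0.724 to 2.47), and both intervals included 1. Exon regions alone gave 1.14-fold and 1.01-fold. The region at the first exon, chr6:21214801-21218200 in mouse 1, held 42.5% of the HA reads there and 53.8% in mouse 2.

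Kcnq3 encodes Kv7.3, a subunit of the M-channel, the slow potassium current that acetylcholine shuts off. It was 1 of only 2 of the 8 genes with a region in all 4 lists. It held 26 anti-HA reads against 4 from IgG in mouse 1 and 96 and 74 in mouse 2. The folds over IgG were 2.25 (0.779 to 8.85) and 1.37 (1.00 to 1.88), so the lower bound in mouse 2 lay at the edge of the call. The pooled scale put the fold of mouse 2 at 0.645 (0.472 to 0.886), on the other side of 1. Over wild type Kcnq3 held 84 anti-HA reads against 57 from wild type in mouse 1 and 96 and 45 in mouse 2, 1.04-fold (0.737 to 1.49) and 1.22-fold (0.847 to 1.78). Exon regions alone gave 0.898-fold and 1.05-fold over wild type. The region at its 3' end, chr15:65986336-66000300 in mouse 2, held 77 of the 96 HA reads, against 65 of the 74 IgG reads and 43 of the 45 wild-type reads. No region was listed at this end over IgG in mouse 1, so the 26 HA reads of that list came from elsewhere on the gene.

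Scn8a encodes Nav1.6, the sodium channel of the axon initial segment where spikes start. It was the other gene with a region in all 4 lists, and it lay below the median of each. It held 13 anti-HA reads against 8 from IgG in mouse 1, 0.561-fold (0.216 to 1.56), and 172 anti-HA reads against 267 from IgG in mouse 2, 0.680-fold (0.559 to 0.827). In mouse 2 IgG reads outnumbered HA reads in the 3' UTR region chr15:101038201-101046180, with 67 anti-HA reads against 127 from IgG. Over wild type it held 145 anti-HA reads against 130 from wild type in mouse 1, 0.790-fold (0.619 to 1.01), and 168 and 119 in mouse 2, 0.807-fold (0.634 to 1.03). Its mean log2 fold over wild type was -0.33 ± 0.02 (SD, n = 2 knock-in libraries over the same wild-type library), but on the pooled scale the folds were 1.31 and 1.53, above 1 in both mice. The call below the median in mouse 2 over IgG held on the pooled scale, at 0.321-fold (0.263 to 0.390), and was lost against the median of its own chromosome, at 0.823-fold (0.675 to 1.00).

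**Figure D1:**
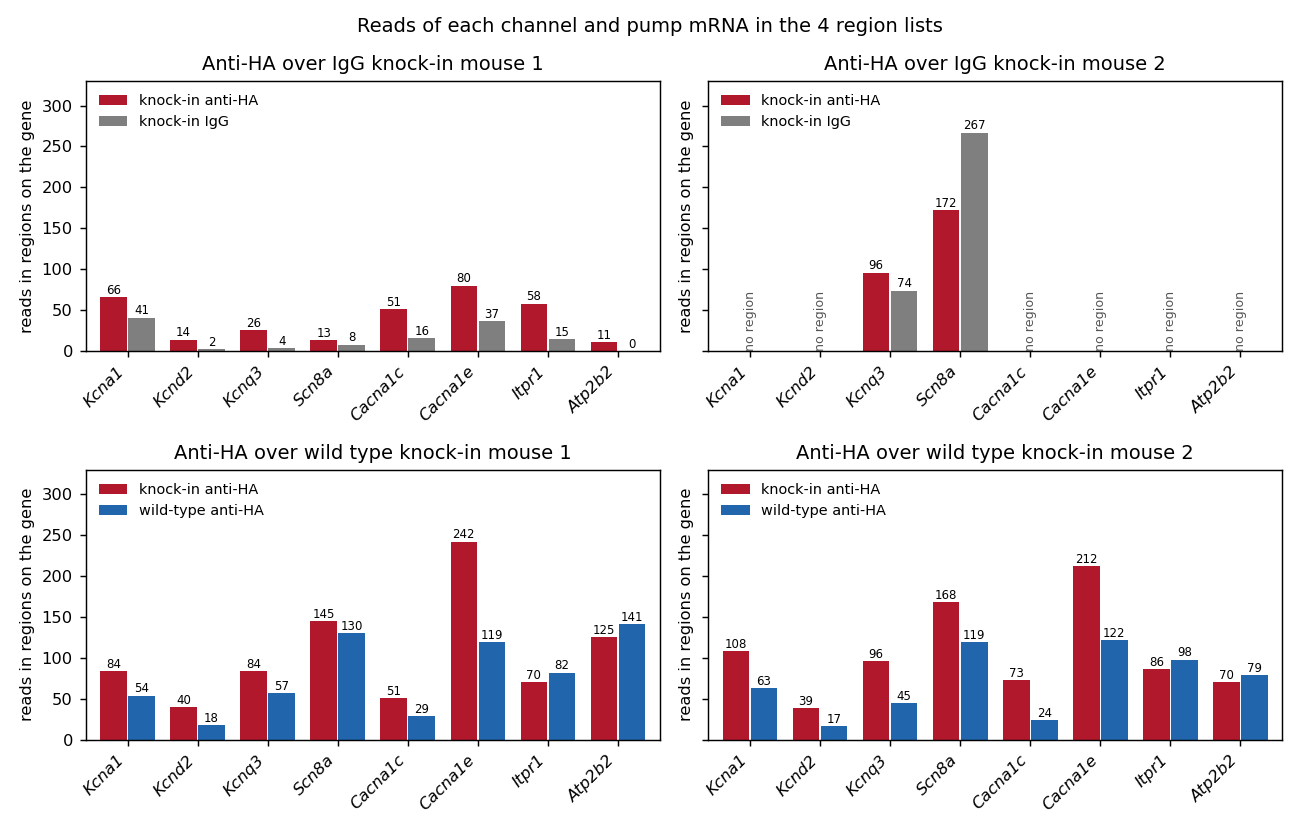
Reads summed over the regions of each gene (y axis) in the 4 lists, with the knock-in anti-HA library in red beside its control, knock-in IgG in grey or wild-type anti-HA in blue; each bar is 1 library and "no region" marks genes outside the list. Kcnq3 and Scn8a are the only genes drawn over IgG in mouse 2, where Scn8a has 172 anti-HA reads against 267 from IgG; over wild type HA reads exceed control reads for 6 genes in both mice and not for Itpr1 and Atp2b2.

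The pair of calcium channels held more HA than control reads in every list that had them, and each was called above the median in 1 mouse. Cacna1c encodes Cav1.2, the L-type channel that couples synaptic activity to gene expression. It held 51 anti-HA reads against 16 from IgG in mouse 1, 1.10-fold (0.618 to 2.07). Over wild type it held 51 anti-HA reads against 29 from wild type in mouse 1, 1.25-fold (0.775 to 2.04), and 73 and 24 in mouse 2, 1.74-fold (1.08 to 2.88). The call in mouse 2 did not recur in mouse 1, and the mean log2 fold was 0.56 ± 0.34 (SD, n = 2, shared wild-type library). The wild-type reads of Cacna1c were mostly those of the 3' end. The region there, chr6:118587401-118594200 in mouse 1, held 17 of 51 HA and 19 of 29 wild-type reads, and its counterpart in mouse 2 held 32 of 73 HA and 18 of 24 wild-type reads. The rest of the gene held 34 anti-HA reads against 10 from wild type in mouse 1 and 41 and 6 in mouse 2. Of these, intron-only regions held 13 and 2 in mouse 1 and 2 and 0 in mouse 2. Exon regions alone gave 0.875-fold (0.470 to 1.71) over IgG in mouse 1. Over wild type they gave 0.997-fold (0.593 to 1.70) in mouse 1 and 1.69-fold (1.05 to 2.81) in mouse 2. A short region in mouse 1 is shared with Dcp1b, at 3 HA reads.

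Cacna1e encodes Cav2.3, the R-type calcium channel of spines and terminals. It had the most reads of the 8 genes over wild type, with 242 anti-HA reads against 119 from wild type in mouse 1 and 212 and 122 in mouse 2. The fold was 1.44 (1.15 to 1.81) in mouse 1 and 0.993 (0.791 to 1.25) in mouse 2, and the mean log2 fold was 0.26 ± 0.38 (SD, n = 2, shared wild-type library). The spread between the mice was larger than the mean. The region at its 3' end held 106 anti-HA reads against 57 from wild type in mouse 1 and 110 and 63 in mouse 2, reads of coding exon and 3' UTR. Over IgG in mouse 1, where that end is not listed, Cacna1e held 80 anti-HA reads against 37 from IgG, 0.747-fold (0.50 to 1.13). Of these, 46 anti-HA reads against 26 from IgG lay in the region chr1:154466886-154489640, which spans 16 exons. The single region of the 8 genes with identical coordinates in both wild-type lists and at least 10 reads in each was the Cacna1e region chr1:154725596-154726825, with 11 anti-HA reads against 8 from wild type in mouse 1 and 12 and 8 in mouse 2. Its log2 difference was -0.16 (SE 0.41, limma adjusted p = 0.801 over 107 regions).

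Itpr1 and Atp2b2 were the only ones of the 8 genes with fewer HA than wild-type reads. Itpr1 encodes the IP3 receptor, and Atp2b2 the plasma membrane calcium pump PMCA2. Itpr1 held 70 anti-HA reads against 82 from wild type in mouse 1, 0.605-fold (0.433 to 0.842), and 86 and 98 in mouse 2, 0.501-fold (0.371 to 0.677). Its mean log2 fold was -0.86 ± 0.19 (SD, n = 2, shared wild-type library). Atp2b2 held 125 anti-HA reads against 141 from wild type in mouse 1, 0.628-fold (0.489 to 0.804), and 70 and 79 in mouse 2, 0.506-fold (0.362 to 0.707), with a mean log2 fold of -0.83 ± 0.22 (SD, n = 2, shared wild-type library). Both lay below the list median in both mice with intervals that exclude 1, but the side depends on the scale. On the pooled scale Itpr1 was 1.00-fold and 0.952-fold, and Atp2b2 1.04-fold and 0.962-fold, with no call. The pooled ratios themselves depend in part on 1 region annotated to Gm26917, which holds 43.6% and 43.7% of the wild-type reads. Leaving it out, the pooled scale would add 0.41 and 0.60 to the log2 folds over wild type, in place of 0.73 and 0.93. Without that region the folds were 0.804 (0.576 to 1.12) and 0.758 (0.561 to 1.02) for Itpr1, and 0.834 (0.651 to 1.07) and 0.765 (0.547 to 1.07) for Atp2b2.

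Against IgG these same mRNAs stood elsewhere. Itpr1 held 58 anti-HA reads against 15 from IgG in mouse 1, 1.34-fold (0.747 to 2.54). Atp2b2 held 11 anti-HA reads against 0 from IgG in 3 short regions, at least 1.27-fold with the floor of 3 counts per library, and 11 reads are too few for a call. Neither had a region over IgG in mouse 2. The regions of Itpr1 were many and small, 13 and 12 over wild type, and the longest was chr6:108386601-108396200 with 10 exons. It held 22 HA, 8 IgG and 35 wild-type reads in mouse 1. Its counterpart in mouse 2, chr6:108386601-108395000, held 24 anti-HA reads against 33 from wild type. Unlike the other 7 genes, Itpr1 had at most 14.0% of its HA reads over wild type at the 3' end. The Atp2b2 region at the 3' end held 46 anti-HA reads against 53 from wild type in mouse 1 and 22 and 20 in mouse 2. In mouse 2 a pair of short Atp2b2 regions is shared with the overlapping gene model Gm15083, at 2 HA reads each, and 1 Itpr1 region with 5 HA reads is shared with an annotated miRNA gene; whether strand was used in counting is not given.

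**Figure D2:**
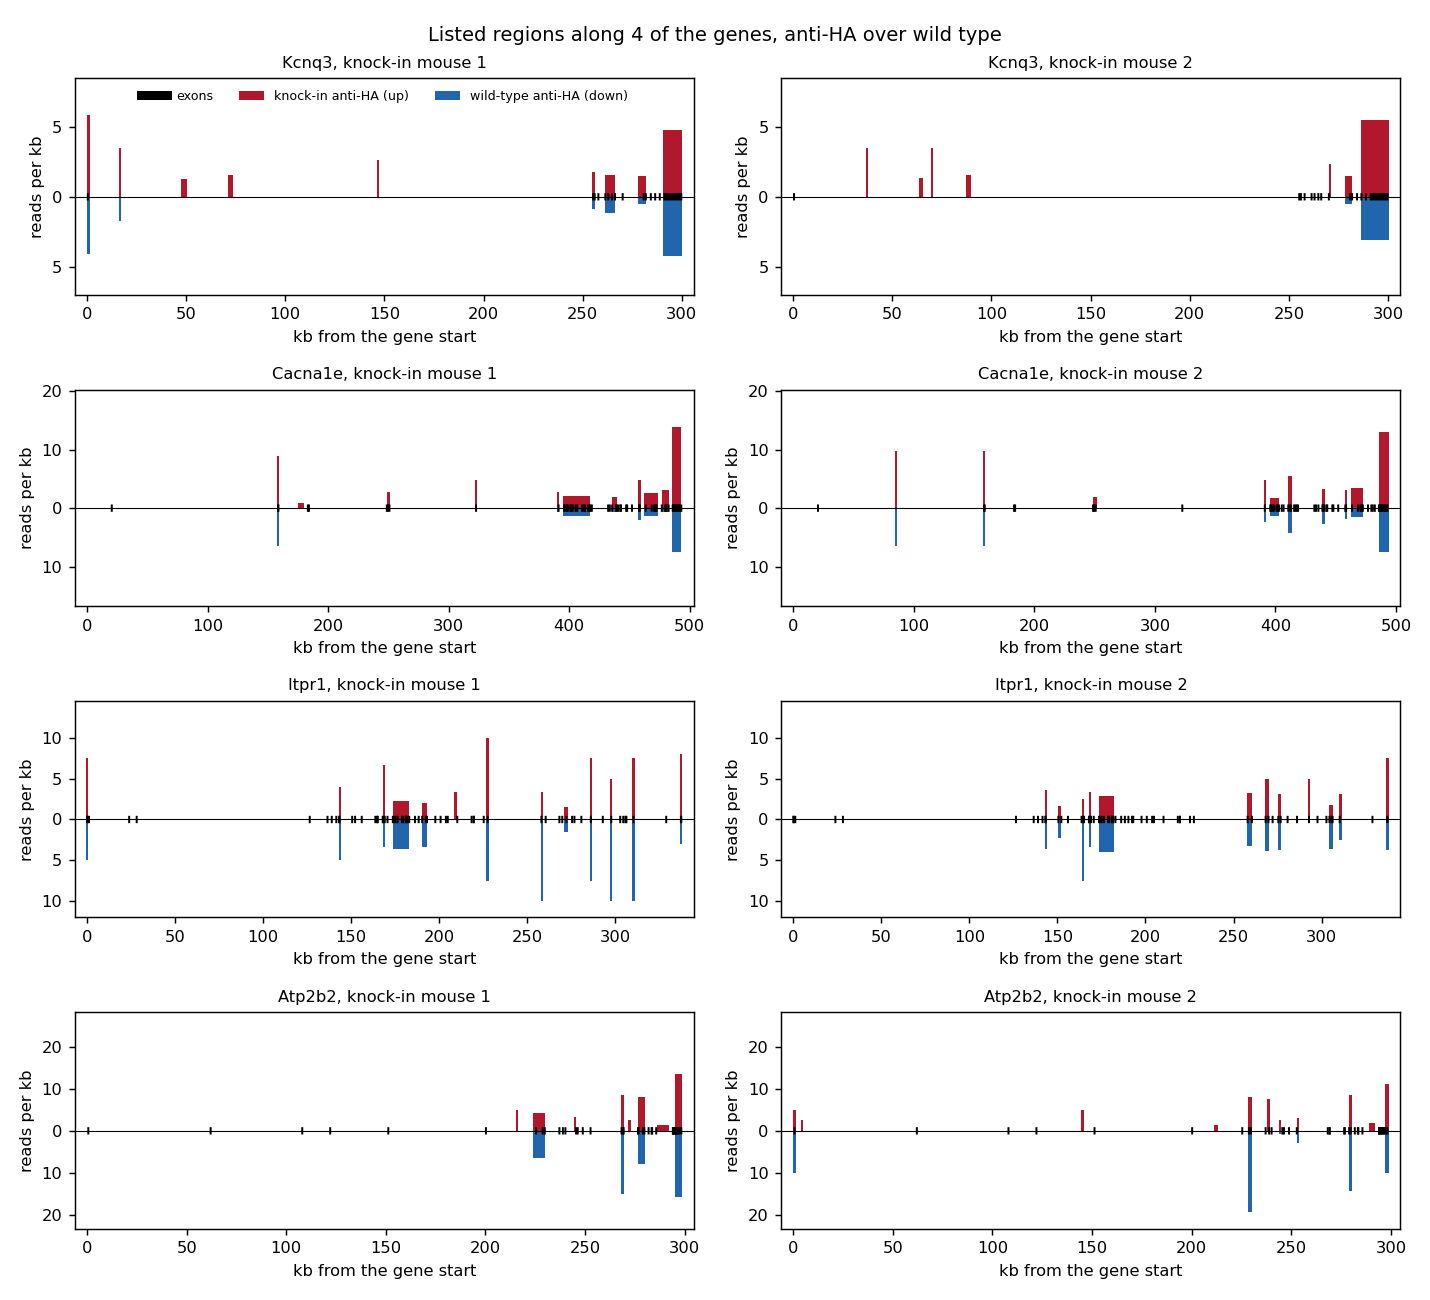
Listed regions of 4 genes along the gene, in kb from its start (x axis), with knock-in anti-HA reads per kb upward in red and wild-type anti-HA reads per kb downward in blue, mouse 1 on the left and mouse 2 on the right; black marks are exons, and short regions and exons are drawn at a minimum width to be visible. Bars are unscaled. The red bar is longer than the blue one in the 3' end region of Kcnq3 and Cacna1e. Relative to the list median, that region was 0.797-fold and 1.02-fold for Kcnq3 in mice 1 and 2, and 1.32-fold and 0.998-fold for Cacna1e. Most Itpr1 regions are short, and the blue bar of its longest region is longer than the red one in both mice.

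Few of the 8 genes were called in any list on the median scale. Over IgG in mouse 1 all 8 had a region, 6 had at least 20 reads, 0 of the 6 were called above the median, where 7.68% of all genes were, and 1, Kcna1, was called below it, where 23.6% were. Over IgG in mouse 2, of the 2 genes listed, Kcnq3 was called above (10.2% of all genes) and Scn8a below (28.5%). Over wild type all 8 genes had at least 20 reads in both mice. In mouse 1, 1 of 8 was called above (Cacna1e, background 11.6%) and 2 below (Itpr1 and Atp2b2, background 8.13%). In mouse 2, 1 of 8 was called above (Cacna1c, background 9.1%) and 2 below (Itpr1 and Atp2b2, background 9.1%). These calls rest on the median scale. On the pooled scale 6 of 8 were called above in each wild-type list, where 58.2% of all genes were in mouse 1 and 64.2% in mouse 2, and 0 below (2.69% and 2.51%). Over IgG that scale called 0 above (4.2% and 4.61%) and 2 below in each mouse (37.2% and 73.5%).

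The median fold of the 8 genes over wild type was 1.07 in mouse 1 and 0.986 in mouse 2, against 1.15 and 1.10 over all genes with at least 20 reads. Over IgG it was 1.18 in mouse 1 and 1.03 in mouse 2, against 0.839 and 0.822 over all such genes, with 8 and 2 genes behind it. Restricting mouse 1 to the 6 genes with at least 20 reads gave 0.924. Summed over the genes, HA held 841 reads and wild type 630 in mouse 1, and 852 and 567 in mouse 2. Over IgG the sums were 319 anti-HA reads against 123 from IgG in mouse 1 and 268 and 341 in mouse 2. In the authors' deposited table, 26 of 44, 13 of 14, 49 of 69 and 48 of 61 of their regions, in the order IgG mouse 1, IgG mouse 2, wild type mouse 1 and wild type mouse 2, had an adjusted p below 0.05. That compares with 64.6%, 87.3%, 82.3% and 78.8% of all regions in the same table. By the authors' empirical false discovery rate below 10% in that deposited table, 0 of 44, 14 of 14, 48 of 69 and 43 of 61 passed, against 4.25%, 71.8%, 48.2% and 48.0% of all regions in the same order of lists.

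**Figure D3:**
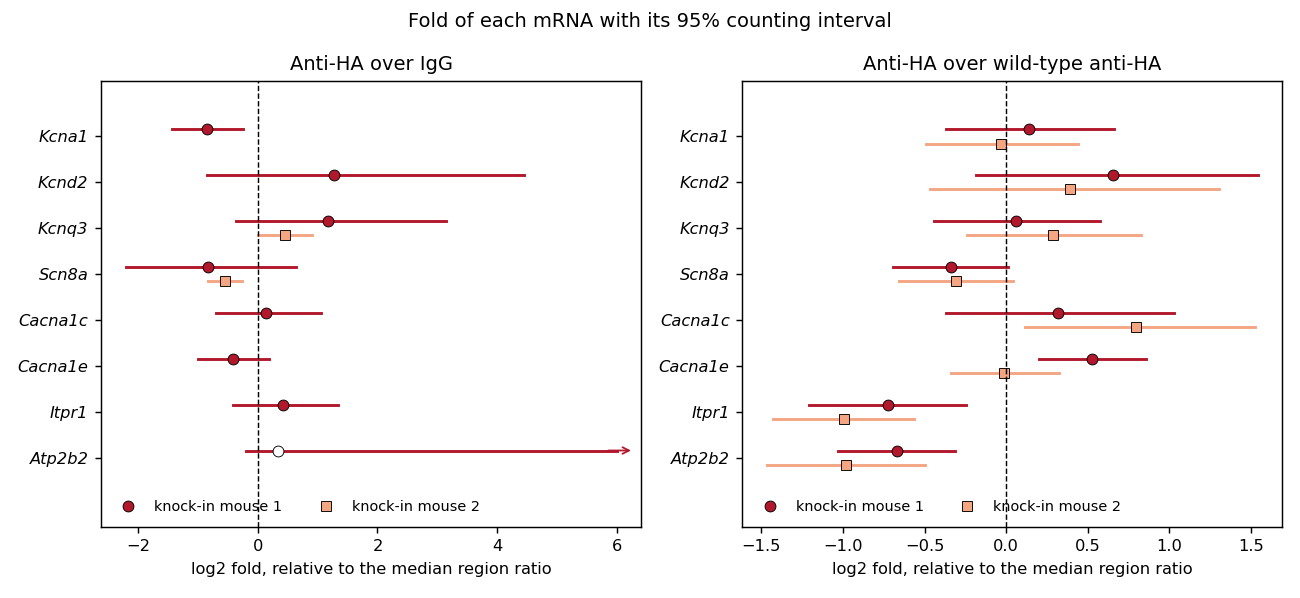
Log2 fold of each gene (x axis) over IgG (left) and over wild-type anti-HA (right), in knock-in mouse 1 (dark circles) and mouse 2 (light squares), 1 point per pair of libraries with its 95% counting interval; 0 is the median region ratio of the list and the open circle of Atp2b2 is a lower bound. Over wild type the points of Itpr1, Atp2b2 and Scn8a lie left of 0 in both mice, with Scn8a nearest to 0, and those of Cacna1c, Kcnd2 and Kcnq3 lie right of it in both; the interval stays right of 0 for Cacna1e in mouse 1 and for Cacna1c in mouse 2.

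The tests across all genes and regions gave no call on the 8 genes as designed. limma on gene sums with at least 20 reads in both IgG lists, HA against IgG with 2 libraries each, covered 390 genes. It found 13 higher (3.33%) and 0 lower at an adjusted p of 0.05, or 19 and 0 at an unadjusted p of 0.05. The log2 difference was 0.74 for Kcnq3 (SE 1.53, limma adjusted p = 0.997), higher in 2 of 2 mice, and -0.71 for Scn8a (SE 1.33, limma adjusted p = 0.997), lower in 2 of 2 mice. The sums cover different regions in mice 1 and 2, 11.7 and 24.8 kb for Kcnq3 and 6.27 and 57 kb for Scn8a. These standard errors include that difference in listed length, so the high p-values do not show equal levels. With the mouse as a replicate block 29 genes were higher (7.44%) and 95 lower (24.4%), and the standard errors shrank to 0.21 for Kcnq3 (limma adjusted p = 0.0841) and 0.16 for Scn8a (limma adjusted p = 0.0552). Kcnq3 came to -0.014 on the pooled scale. limma on 71 regions with identical coordinates and at least 20 reads in both wild-type lists found 9 higher (12.7%) and 23 lower (32.4%), but none of the 71 belonged to the 8 genes. The wild type has 1 library, so its spread is assumed to be that of the HA pair.

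When regions of both lists were matched by a reciprocal overlap of at least 50%, 666 were tested against wild type, 26 were higher (3.9%) and 62 lower (9.31%), and 6 regions of the 8 genes entered. The Itpr1 region chr6:108386601-108396200 was lower in HA, by a log2 value of -1.21 (SE 0.40, limma adjusted p = 0.0392). Both mice were set against the same single wild-type library here, so they are not independent of each other. The pooled scale gave -0.38 (limma adjusted p = 0.402). The remaining 5 regions, 2 of Scn8a and 1 each of Kcnd2, Cacna1c and Kcna1, did not pass, with log2 differences between -0.62 and 0.10. On the pooled scale Kcna1 (log2 0.90, limma adjusted p = 0.0327) and the Scn8a region chr15:101011126-101029650 (log2 0.88, limma adjusted p = 0.0442) passed as higher, on a scale where 41.4% of the 666 regions did and 6.91% passed as lower. Regions enter the lists by a call in the HA library against a control, although some hold fewer HA than control reads. These tests therefore concern selected regions.

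Where a region had the same coordinates in both lists of a mouse, the reads of all 3 libraries could be set side by side. In mouse 1 this held for 41 regions of the 8 genes, with 292 HA, 117 IgG and 205 wild-type reads. Kcna1 held 66 HA, 41 IgG and 41 wild-type reads, with the controls level. Cacna1e was alike, at 60 HA, 31 IgG and 33 wild-type reads over the 4 of its regions that matched. Itpr1 held 58 HA, 15 IgG and 75 wild-type reads, so its wild-type reads were above HA while its IgG reads were far below both. Kcnq3 held 26, 4 and 15, and Cacna1c 51, 16 and 29, in the order HA, IgG and wild type. The raw IgG to wild-type ratio was 0.200 for Itpr1 and 0.267 for Kcnq3, against 1.00 for Kcna1, 0.939 for Cacna1e and 0.365 over all 3212 matched regions of that mouse. In mouse 2 Kcnq3 held 96 HA, 74 IgG and 45 wild-type reads, and Scn8a 168, 263 and 119. For both genes IgG reads were above wild-type reads there. Over regions with other coordinates in mouse 1 the IgG reads of Kcnq3 were below its wild-type reads. Scn8a held 13 HA, 8 IgG and 9 wild-type reads in mouse 1, nearly level controls. Its IgG to wild-type ratio of 0.889 lay above the 0.365 over all matched regions of that mouse. The IgG to wild-type ratios in mouse 2 were 1.64 for Kcnq3 and 2.21 for Scn8a, against 1.20 over 1587 matched regions.

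**Figure D4:**
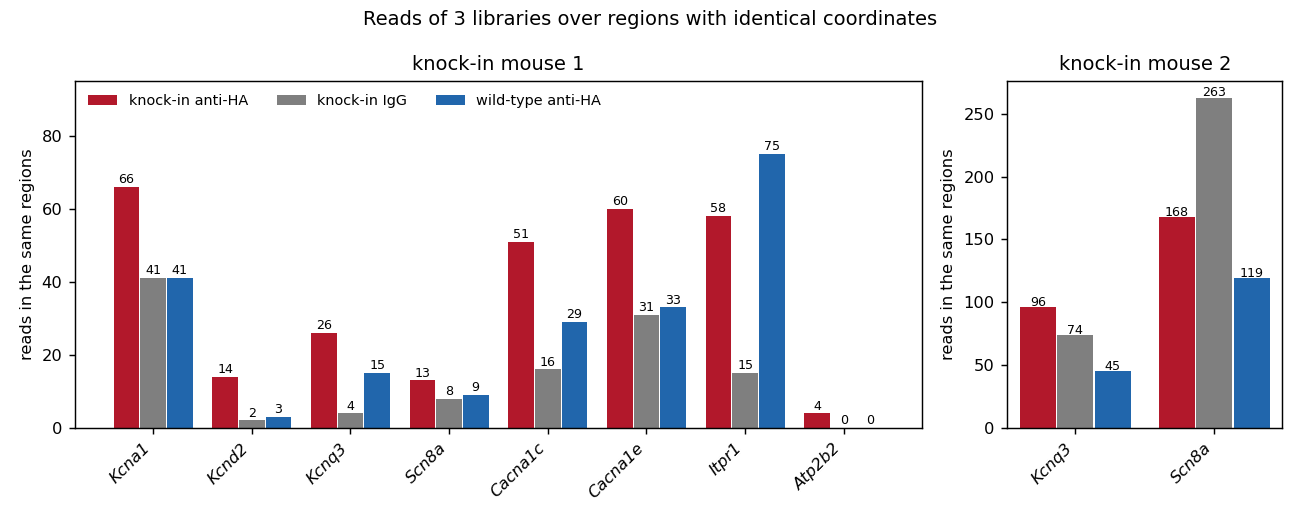
Reads of the knock-in anti-HA, knock-in IgG and wild-type anti-HA libraries (y axis) over regions with identical coordinates in both lists of a mouse, for each gene with such regions; bars are single libraries, unscaled. In mouse 1 the wild-type bar of Itpr1 (75) stands above its HA bar (58) and the IgG bar is at 15, while both control bars of Kcna1 are at 41; in mouse 2 the IgG bar of Scn8a (263) is the tallest.

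Most reads of the channel mRNAs lay in regions that touch an exon. Regions in introns only gave 12.5% and 7.09% of the HA reads over IgG and 7.02% and 6.34% over wild type. Reads are given for a whole region, so a region that touches an exon can also hold intron reads, or reads past the gene end as for Kcna1. The Cacna1e region chr1:154466886-154489640, for example, runs over 22.8 kb and touches 16 exons. Regions that touch an exon held 782 anti-HA reads against 625 from wild type in mouse 1 and 798 and 562 in mouse 2, while intron-only regions held 59 and 5, and 54 and 5. Over IgG, exon regions held 279 anti-HA reads against 120 from IgG in mouse 1 and 249 and 333 in mouse 2, and intron-only regions 40 and 3, and 19 and 8. The excess of HA in introns came from regions with few reads, at most 8 HA reads in any of them. In 17 of 20 and 17 of 19 intron-only regions over wild type the control had 0 reads, and the median region had 2 HA reads. Such a region is listed because HA has reads there, and among all genes' intron regions no larger than the largest of the 8 genes, 84.3% and 86.7% also had 0 control reads. Without the intron regions Atp2b2 held 111 anti-HA reads against 139 from wild type in mouse 1 and 52 and 78 in mouse 2, 0.566-fold and 0.381-fold. Its intron-only regions alone held 14 and 2, and 18 and 1, on the other side of 1. For Kcnq3 in mouse 2, exon regions alone gave 1.18-fold over IgG (0.856 to 1.64), so its call there rests on 13 HA reads in 5 intron regions with 0 IgG reads.

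**Figure D5:**
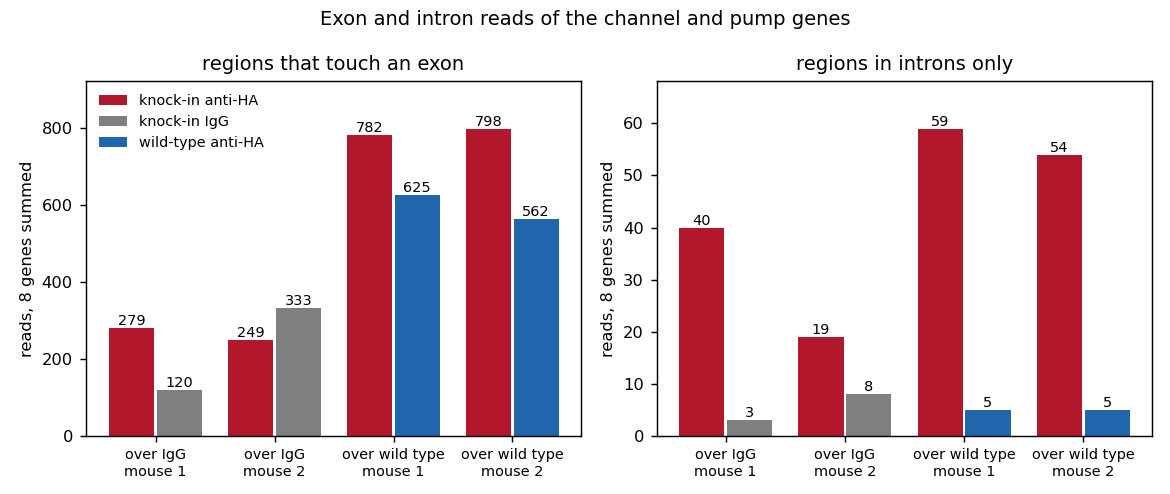
Reads of the 8 genes summed over regions that touch an exon (left) and over regions in introns only (right), HA in red beside its control in grey or blue, for the 4 lists; each bar is the sum from 1 library. Exon regions hold between 249 and 798 HA reads and intron-only regions between 19 and 59, with control bars for introns between 3 and 8 reads.

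The 3' end carried a large part of the listed reads over wild type. Regions that touch the 3' UTR held 42.4% of the HA reads and 44.3% of the wild-type reads of the 8 genes in mouse 1, and 51.3% and 49.6% in mouse 2. For mouse 2 over IgG they held 53.7% of the HA and 56.3% of the IgG reads of Kcnq3 and Scn8a. For mouse 1 over IgG the shares were 28.5% of the HA and 39.8% of the IgG reads, the widest gap of the 4 lists. Only Kcna1, Cacna1c and Itpr1 had a region that touches the 3' UTR in that list. Kcna1 held 66 of the 91 HA and 41 of the 49 IgG reads there, which are all of its reads, in a region that lies mostly past the gene end. The gap thus depends on which 3' ends are listed. Over wild type in mouse 2 the Kcna1 region with 108 HA reads also touches coding exon and 5' UTR. Cacna1c differed most, with 33.3% of HA and 65.5% of wild-type reads at the 3' end in mouse 1 and 43.8% and 75.0% in mouse 2. Its other reads in mouse 1 include 13 HA and 2 wild-type reads of intron-only regions. The split was chosen after the values were seen and has no test.

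Other channel and pump genes were followed with 148 genes in lists of related channels, pumps, auxiliary subunits and their axonal anchors. Of these 48 had a region in any list, and 100 had none, mostly on chromosomes with few regions. Over IgG in mouse 1, 1 of 18 with at least 20 reads was called above the median (7.68% of all genes) and 3 below (23.6%). Kcna5 is 1 of the 3 called below, with 74 anti-HA reads against 41 from IgG. The region also counted for Kcna1 holds 66 and 41 of these, so its call shares reads with that of Kcna1. Over IgG in mouse 2 it was 1 and 1 of 7 (10.2% and 28.5%). Over wild type 2 of 29 were called above and 4 below in mouse 1 (11.6% and 8.13%), and 1 and 4 of 22 in mouse 2 (9.1% each). None of the 10 other sodium channel genes and none of the 14 HCN and TRP channel genes had a region.

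Close relatives of the 8 genes gave mixed values. Cacna1i, a T-type calcium channel, was below the median over wild type in both mice, with 27 anti-HA reads against 37 from wild type in mouse 1 (0.517-fold, 0.303 to 0.872) and 18 and 27 in mouse 2 (0.381-fold, 0.198 to 0.718). The relative of Atp2b2 with the most reads, Atp2b3, held 89 anti-HA reads against 54 from wild type in mouse 2 (0.942-fold, 0.664 to 1.35) and 65 anti-HA reads against 47 from IgG in mouse 1 (0.478-fold, 0.323 to 0.711). Kcnab2, an auxiliary subunit that binds Kv1 channels such as Kcna1, held 202 anti-HA reads against 47 from IgG in mouse 1 (1.48-fold, 1.08 to 2.09), against 0.556-fold for Kcna1 in that list. Over wild type Kcnab2 held 224 anti-HA reads against 178 from wild type (0.891-fold) and 185 and 141 (0.750-fold, 0.599 to 0.940).

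Kcnq5, which forms M-channels with Kcnq3, was called above in mouse 1 over wild type (30 anti-HA reads against 10 from wild type, 2.12-fold, 1.01 to 4.87) but held 9 and 4 in mouse 2. Kcns2, a silent subunit of Kv2 channels, held 17 anti-HA reads against 3 from wild type in mouse 1 (4.01-fold, 1.16 to 21.4) and 8 anti-HA reads against 1 from wild type in mouse 2. Kcna6, a Kv1 channel, held 57 anti-HA reads against 14 from wild type in mouse 2 (2.33-fold, with an interval wholly above 1) and 31 and 13 in mouse 1 (1.69-fold, 0.858 to 3.52). These 3 were named after their values were seen. Nfasc and Ank3, which anchor channels such as Scn8a at the axon initial segment, did not lie together. Nfasc held 170 anti-HA reads against 102 from IgG in mouse 1 (0.576-fold, 0.448 to 0.743), and 170 anti-HA reads against 93 from wild type in mouse 1 (1.29-fold, 1.00 to 1.69) and 181 and 95 in mouse 2 (1.09-fold, 0.845 to 1.41) over wild type. Ank3 held 43 anti-HA reads against 19 from IgG in mouse 2 (2.39-fold, 1.36 to 4.34) and 43 anti-HA reads against 99 from wild type in the same mouse (0.248-fold, 0.169 to 0.358).

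The genes nearest to the median profile of the 8 channel and pump genes were Fam19a5, Srebf2, Tubgcp6, Arid2 and March6, out of 271 protein-coding genes with at least 20 reads in all 4 lists. Likeness was the Euclidean distance of the log2 folds over the 4 lists, which share libraries. Fam19a5, which encodes a secreted brain protein, was nearest at a distance of 0.197, with folds of 1.18 and 1.08 against IgG, then 1.15 and 0.976 against wild type. March6 was the farthest of these 5, at a distance of 0.351.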

How the data were processed

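Hippocampal lysates were incubated with anti-HA or control IgG, and cDNA libraries were read for 50 cycles from 1 end, per the labels' protocols. The submitters' processing notes name TopHat and TopHat2 with GRCm38 and mm10, and the headers of the deposited lists name rtracklayer 1.28.9 as the writer. For the region caller, a name is not given in the sources at hand. Each deposited list holds other values in 1 attribute field per region: the reads of 1 HA and 1 control library, not normalised, and the authors' log-odds score, p-value (raw and adjusted) and empirical rate of false discoveries. Lists were tied to libraries by their names and the mouse numbers in the labels. Reads outside regions are absent, so no depth per sample can be given.

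Reads were summed over the distinct regions on a gene and divided by the median ratio of the list's regions with at least 20 reads. Where the control had 0 reads, 3 counts per library served as the floor. Exons and UTRs came from GENCODE M21 basic. limma 3.58.1 in R 4.3.3 (trend, Benjamini-Hochberg) was run on log2(reads + 0.5) for gene sums over IgG and for regions over wild type, because the values are reads in selected regions and not whole libraries. On simulated data it recovered 38.5%, 78.5% and 100% of genes over IgG changed by 1, 2 and 3 log2 units, and 0%, 41.7% and 81.8% of regions over wild type. In the data the standard errors of Kcnq3 and Scn8a over IgG were 1.53 and 1.33 log2 units. The simulated rates therefore do not apply to these genes. The knock-in number in the labels was taken to mark 1 mouse. Deviations of HA and IgG libraries of the same mouse correlated at 0.683 over the 390 genes, whose sums cover different regions in each mouse. Over 80 regions with identical coordinates the correlation was -0.04. The labels give no further detail on the mice, so spreads may be technical. Over identical regions with at least 20 reads both pairs differed beyond counting noise (chi-square p = 1.53e-10 for HA over 74 regions, 0.0398 without Malat1, and 1.10e-16 for IgG over 24), so each library counts as 1 sample.

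The 8 genes and all lists were chosen with earlier results of these data known. Named besides them were the 3 genes with the most reads of each channel list, where a result needed them, and the 5 genes nearest in profile. Some genes this rule names are not reported here. Alternatives were the pooled and chromosome scales, other minima, pseudocounts, region filters and overlaps, and the replicate block; the exon and intron split, the overlap with the pooled scale and the pooled scale without its top region were added after the data were seen. Computation used Python 3.11.15, pandas 2.3.3, scipy 1.17.1 and matplotlib 3.10.9.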

Additional observations from a re-analysis of the deposited data

How the results depend on the processing

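The median log2 fold of the 8 genes in mice 1 and 2 was 0.24 and -0.05 against IgG, then 0.10 and -0.02 against wild type. The pooled scale gave -0.18 and -1.14 against IgG, then 0.83 and 0.91 against wild type, and the pooled scale without its top region 0.51 and 0.58 over wild type. For mouse 1 over IgG it was -0.14 with at least 20 reads and 0.69 with the authors' adjusted p below 0.05, and with their empirical false discovery rate below 10% no region of these genes was left. For mouse 2 over IgG it was 0.22 on the chromosome scale and 0.41 with regions wholly inside the gene. For mouse 2 over wild type it was 0.15 and 0.16 under the authors' adjusted p and false discovery rate limits. The log2 fold changed side on the pooled scale in 10 of 26 cases. Of called genes it did for Kcnq3 over IgG in mouse 2 (-0.63) and, over wild type in mouse 1, for Atp2b2 (0.060) and Itpr1 (0.0052). The uncalled cases were Cacna1c, Itpr1 and Atp2b2 over IgG in mouse 1, Scn8a over wild type in both mice, and Kcna1 and Cacna1e over wild type in mouse 2; with intron regions only it did for Atp2b2 (2.31 and 3.36 over wild type). With only regions that touch an exon, the side changed in mouse 1 for Cacna1c over IgG (-0.19) and over wild type (-0.0048), and for Kcnq3 over wild type (-0.16). The limma difference of Kcnq3 became -0.014 on the pooled scale. The cause of these moves was not tested beyond the scale itself.

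With the mouse as a replicate block, limma over IgG gave 29 genes higher and 95 lower in place of 13 and 0, and neither Kcnq3 nor Scn8a passed. On the chromosome scale 0 of 386 genes were higher (4 at an unadjusted p of 0.05). Of regions over wild type 33 were higher with no minimum of reads and 31 on the pooled scale, in place of 9. Overlap matching gave 26 higher and 62 lower of 666, or 276 and 46 with the pooled scale. Leaving out a mouse leaves limma over IgG no residual degrees of freedom, and with 2 mice the mean log2 folds have no such check beyond each mouse's own value: without mouse 1 those over wild type of Cacna1e (-0.010) and Kcna1 (-0.030) fell below 0. Read numbers were low: 25 of 44 regions of these genes over IgG in mouse 1 held 3 or fewer HA reads.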

Other observations

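The deposited annotation names Scn8a as the nearest gene for a region that lies upstream of it, chr15:100810486-100822170 in mouse 1 and chr15:100813621-100823880 in mouse 2. It held 23 HA, 11 IgG and 22 wild-type reads in mouse 1 and 32 HA, 31 IgG and 20 wild-type reads in mouse 2, and it was not counted for Scn8a. Its folds were 0.722 and 1.09 against IgG, then 0.740 and 0.914 against wild type, and all 4 intervals included 1. A short region in the same class lies past the 3' end of Kcna1, with 4 HA reads and 0 IgG and 0 wild-type reads in mouse 1 at chr6:126599401-126602600.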
